A study of Mus musculus with 6 samples.

Results

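The kinetochore and mitotic spindle genes examined here are 44 mouse genes of chromosome segregation, taken by gene symbol from a fixed list. They cover the inner and outer kinetochore, the spindle checkpoint, the mitotic kinases with the chromosomal passenger complex, and the motors and spindle proteins. Of the 44 genes 43 were measured, of 19937 genes in all. The symbol Ccnb1, for cyclin B1, matched no probe set in the annotation used, so that gene was not analysed here. Each of the 43 genes had 1 probe set annotated to it alone.

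Expression was read on Affymetrix Mouse Gene 1.0 ST arrays in embryonic stem (ES) cells cloned from the male 46C line, which has a 129P2/OlaHsd background and carries GFP knocked into Sox1. The FLAG-CTCFL group held 3 arrays of cells with a vector for FLAG-tagged mouse CTCFL, and the control vector group 3 arrays of cells with a control vector. Both groups were kept under 1 µg/ml puromycin in medium with 10% serum. The labels state stable transfection and number the replicates, but they do not say how many independent clones these came from, so p-values measure the spread between these arrays alone.

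The kinetochore is the protein assembly that joins each centromere to spindle microtubules. Its inner layer rests on chromatin that carries the histone variant CENP-A, its outer layer binds microtubules, and unattached kinetochores hold back anaphase through the spindle checkpoint. Kinases led by CDK1 with B-type cyclins drive entry into mitosis, and kinesins and microtubule-associated proteins build the spindle. In dividing cells most of these genes are transcribed late in the cell cycle. CTCFL is a germ-line paralog of the insulator protein CTCF, and the series asks what changes in ES cells that make it.

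Most kinetochore and spindle genes differed little between the groups. With the deposited values falls outnumbered rises among the changes that passed the test, as they did over all genes. With the deposited values 3 of the 43 genes were higher in FLAG-CTCFL cells and 10 were lower (limma, adjusted p under 0.05 over all genes), and 30 did not pass. Over all 19937 genes the same test called 30.9%, with 12.5% higher and 18.4% lower. All 43 genes lay above the median signal, and among the 9969 such genes 49.3% were called, with 18.6% higher and 30.8% lower. The 13 called genes are 30.2% of the 43, near the share over all genes and below the share among genes above the median signal. Only Kif4 and Dlgap5 changed at least 1.5-fold, both downwards, where 3.56% of all genes changed that much and 2.77% did so downwards. Among genes above the median signal the share was 6.52%.

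The median log2 fold change of the 43 genes, FLAG-CTCFL minus control vector, was 0.0083, beside 0.0037 over all genes and -0.02 over genes above the median signal. The median size of the change, without its sign, was 0.10 on the log2 scale for the 43 genes and 0.14 for genes above the median signal. The balance of directions depended on how the arrays were scaled. After quantile normalization of the arrays 16 of the 43 genes were higher and 9 lower, beside 19.8% higher and 16.6% lower over all genes. Among genes above the median signal, where all 43 lie, that scaling called 32.4% higher and 25.7% lower. Of the 10 falls 9 also passed after quantile normalization, with Prc1 the exception, and the 3 rises passed too.

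**Figure D1:**
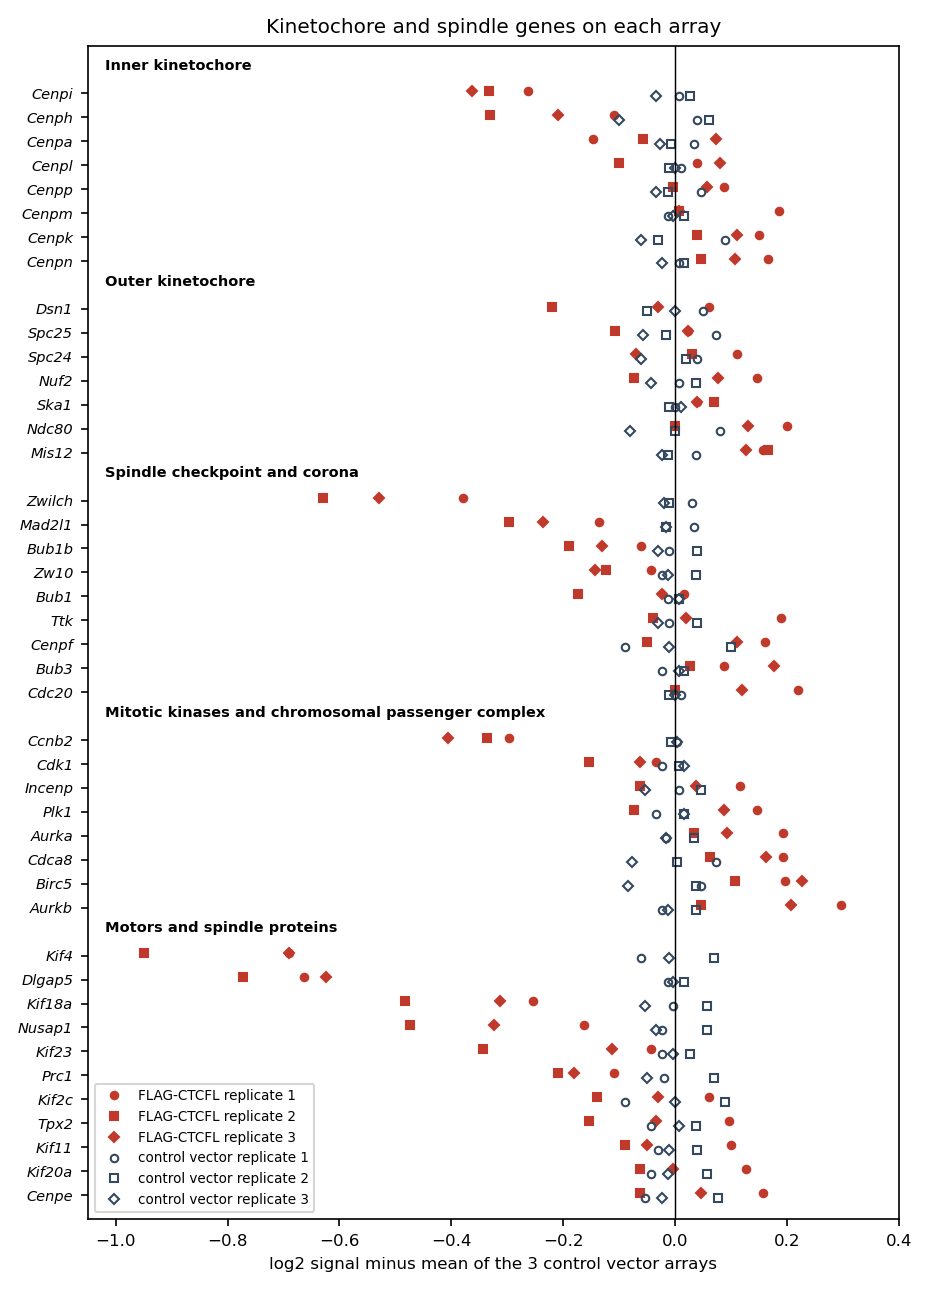
Log2 signal of each kinetochore and spindle gene on each of the 6 arrays, relative to the mean of the 3 control vector arrays, grouped by role. Filled symbols are FLAG-CTCFL arrays and open symbols control vector arrays. In 36 of 43 genes FLAG-CTCFL replicate 2 (square) is the lowest of its group, and Kif4 and Dlgap5 stand farthest to the left.

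The FLAG-CTCFL arrays differed among themselves for these genes in a shared way. The median difference of the 43 genes from their control mean was 0.09 in FLAG-CTCFL replicate 1, -0.08 in replicate 2 and 0.01 in replicate 3. Replicate 1 was the highest of its group for 36 of 43 genes and replicate 2 the lowest for 36 of 43, or 83.7%. Among all genes above the median signal replicate 1 was the highest for 56.4% and replicate 2 the lowest for 60.2%. It also had the narrowest spread of signal, with an SD over probe sets of 1.41 against 1.44 and 1.47 in the other FLAG-CTCFL arrays and 1.45 to 1.47 in the control vector arrays. Without replicate 2 the test called 9 of the 43 genes higher and 10 lower, beside 14.1% higher and 18.1% lower over all genes. The part of array quality in these differences was not tested.

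Ctcfl checked the labels, with a log2 signal of 11.33, 11.22 and 11.24 in FLAG-CTCFL arrays and 7.70, 7.85 and 7.89 in control vector arrays. The ES cell label was read from 10 markers, all measured, at log2 levels between 10.93 and 13.66 on every array. Of these markers 6 were lower in FLAG-CTCFL cells and 1 higher, and their summed signal was 50826 to 54984 in FLAG-CTCFL arrays and 63803 to 64012 in control vector arrays. Of 7 trophoblast markers 5 were higher and 0 lower (limma, 0 lower also at unadjusted p under 0.05), with summed signals of 4027 to 4710 in FLAG-CTCFL arrays and 2524 to 2545 in control vector arrays. The largest rises were those of Krt8 (1.15) and Krt18 (1.04), from control vector means of 9.57 and 9.15. Eomes (0.61), Gata3 (0.33) and Cdx2 (0.30) rose from control vector means of 8.34, 7.84 and 7.56, where the median gene signal was 8.24. Elf5 and Hand1 did not pass. Of 8 fibroblast markers, listed because feeder cells can remain in ES cultures, 1 was higher and 1 lower, with summed signals of 1928 to 2092 in FLAG-CTCFL arrays and 1974 to 2049 in control vector arrays. Among markers of other early lineages 2 of 5 neural, 2 of 4 mesoderm and 1 of 6 endoderm genes were higher, and the rest did not pass. Their log2 levels were low, at 7.66 to 9.24 for neural, 7.52 to 8.03 for mesoderm and 7.46 to 8.39 for endoderm genes. The median gene signal was 8.24, and over all genes 12.5% were higher and 18.4% lower. Whether these shifts bear on the mitotic genes was not tested, and fewer cells in mitosis and less RNA per cell cannot be told apart in RNA of whole cultures.

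Promoters of genes expressed in late cell cycle are known for CCAAT boxes and for the cell cycle homology region (CHR). A search of RefSeq promoter windows (GRCm38.p6), each of 250 bases before to 50 after a gene's start, found windows for 36 of the 44 genes, 40 windows in all. The CHR letters TTTGAA or TTCGAA, on either strand, stood in 62.5% of these windows, against 19.2% of all 32851 windows and 13.5% of those of genes above the median signal. CCAAT, on either strand, stood in 75.0% of the windows, against 37.4% of all windows. Both kinds of motif stood together in 22 of the 40 windows, against 7.5% of all windows. These matches are descriptions of letters and not evidence of binding.

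The windows of 5 genes show that the same motifs are found in genes that fell and in genes that did not pass the test. Each is 150 bases long, from 120 before to 30 after the start, on the strand of the gene, with CCAAT (or its reverse complement ATTGG) and CHR matches in capitals.
Ccnb2, lower in FLAG-CTCFL cells, chr9:70421525-70421674, minus strand: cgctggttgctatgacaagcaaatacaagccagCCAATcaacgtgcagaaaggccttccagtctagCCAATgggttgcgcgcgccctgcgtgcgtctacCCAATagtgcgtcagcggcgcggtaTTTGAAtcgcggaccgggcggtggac
Kif4, lower, chrX:100625945-100626094, plus strand: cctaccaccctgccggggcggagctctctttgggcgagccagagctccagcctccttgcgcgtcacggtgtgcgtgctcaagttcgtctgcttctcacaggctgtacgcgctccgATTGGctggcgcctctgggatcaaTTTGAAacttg
Kif18a, lower, chr2:109280618-109280767, plus strand: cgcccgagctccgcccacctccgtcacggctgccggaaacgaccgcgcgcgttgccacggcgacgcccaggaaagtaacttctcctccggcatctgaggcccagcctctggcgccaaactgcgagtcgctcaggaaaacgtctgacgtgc
Cdk1, not past the threshold, chr10:69352883-69353032, minus strand: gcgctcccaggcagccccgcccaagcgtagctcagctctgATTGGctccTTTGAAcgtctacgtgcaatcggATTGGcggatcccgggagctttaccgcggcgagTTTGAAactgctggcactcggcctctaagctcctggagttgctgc
Cdc20, not past the threshold, chr4:118437314-118437463, minus strand: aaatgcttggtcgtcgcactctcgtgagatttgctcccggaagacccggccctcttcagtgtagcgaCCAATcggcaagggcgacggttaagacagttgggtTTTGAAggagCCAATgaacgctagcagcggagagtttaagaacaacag
Ccnb2 and Cdk1 have the densest matches of these windows, and Ccnb2 fell while Cdk1 did not pass the test. Kif18a fell too, and its 150 bases hold none of the letters searched. CHR letters stood in 4 of 9 windows of the genes that fell, in 0 of 2 windows of those that rose and in 21 of 28 windows of those that did not pass. The 9 windows belong to 8 genes, since Prc1 has overlapping windows that hold the same CHR letters. No window was found for Dlgap5 and Zwilch, which fell, or for Aurkb, which rose.

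The inner kinetochore genes code for CENP-A and for proteins of the constitutive centromere-associated network, which sits on CENP-A chromatin throughout the cell cycle. Of 8 genes 2 fell and 0 rose (limma, with 1 higher at unadjusted p under 0.05), and the median log2 fold change was 0.03. For comparison, 30.8% of genes above the median signal fell and 18.6% rose, and no test set the group against these shares. Cenpi, a subunit of the network's CENP-H/I/K branch, had log2 signals of 8.68, 8.61 and 8.58 in FLAG-CTCFL arrays and 8.95, 8.97 and 8.91 in control vector arrays. The groups did not overlap, and Cenpi fell by 0.32 ± 0.04 on the log2 scale (SE, n = 3 per group; adjusted p = 8.85e-05). Cenph, a partner of CENP-I in that branch, had 9.71, 9.49 and 9.61 in FLAG-CTCFL arrays and 9.86, 9.88 and 9.72 in control vector arrays. Its highest FLAG-CTCFL array nearly met its lowest control vector array, and its fall of 0.21 ± 0.06 (adjusted p = 0.0158) did not pass without control vector replicate 1 or 2, after subtraction of array medians or with no variance shared between genes.

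Cenpk, the third gene of the same branch, differed by 0.10, with a 95% interval of -0.01 to 0.21, and did not pass. Cenpa itself, the gene of the centromeric histone, had 10.75, 10.84 and 10.97 in FLAG-CTCFL arrays, which span its 10.93, 10.89 and 10.87 in control vector arrays. Its difference was -0.04, with an interval of -0.16 to 0.07. Cenpn, whose protein reads CENP-A nucleosomes, was 11.18, 11.06 and 11.12 in FLAG-CTCFL arrays and 11.02, 11.03 and 10.99 in control vector arrays. These arrays did not overlap, but the difference of 0.11 ± 0.05 did not pass (adjusted p = 0.0936). Cenpl (0.0083), Cenpm (0.07) and Cenpp (0.05), further subunits of the network, did not pass either. After quantile normalization Cenpk, Cenpm, Cenpn and Cenpp passed as higher, at 0.17, 0.15, 0.19 and 0.12.

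The outer kinetochore genes of the NDC80, MIS12 and SKA complexes code for proteins that hold microtubules. Of 7 genes 1 rose and 0 fell (limma, 0 lower also at unadjusted p under 0.05), with a median of 0.05. Genes above the median signal rose in 18.6% and fell in 30.8% of cases, and the group was not tested against them. Mis12, of the complex that links inner and outer layers, had 9.48, 9.49 and 9.45 in FLAG-CTCFL arrays and 9.36, 9.31 and 9.30 in control vector arrays. Every FLAG-CTCFL array lay above every control vector array, and Mis12 rose by 0.15 ± 0.04 (SE, n = 3 per group; adjusted p = 0.0152). The call did not hold without control vector replicate 2 (adjusted p = 0.0681) or 3 (adjusted p = 0.0676).

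The 4 subunits of the NDC80 complex, the main microtubule coupler, did not pass. Ndc80 differed by 0.11, with an interval of -0.02 to 0.23, and Nuf2 by 0.05, with an interval of -0.07 to 0.17. Spc24 differed by 0.03 and Spc25 by -0.02, with intervals within -0.13 and 0.14. Dsn1, a MIS12 complex partner, differed by -0.06, with an interval of -0.20 to 0.07. Ska1, of the complex that tracks microtubule ends, had 8.35, 8.38 and 8.35 in FLAG-CTCFL arrays and 8.31, 8.30 and 8.32 in control vector arrays, a difference of 0.05 that did not pass although the arrays did not overlap. Ndc80 (0.18) and Nuf2 (0.12) passed as higher after quantile normalization.

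Among the genes of the spindle checkpoint and the kinetochore corona 2 of 9 fell and 0 rose (limma, 0 higher also at unadjusted p under 0.05), with a median of -0.06. Beside them stand 30.8% lower and 18.6% higher among genes above the median signal, a comparison that was not tested. Zwilch, a subunit of the RZZ complex that brings dynein and checkpoint proteins to kinetochores, was 10.39, 10.14 and 10.24 in FLAG-CTCFL arrays and 10.80, 10.76 and 10.75 in control vector arrays. All FLAG-CTCFL arrays lay well below all control vector arrays, and Zwilch fell by 0.51 ± 0.06 (adjusted p = 1.59e-05). On the linear scale its signal fell by 30%. Zw10, its partner in the same complex, had 9.55, 9.47 and 9.45 in FLAG-CTCFL arrays and 9.57, 9.63 and 9.58 in control vector arrays. Its difference of -0.10 ± 0.04 did not pass (adjusted p = 0.122).

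Mad2l1, the gene of the checkpoint effector MAD2, was 11.83, 11.67 and 11.73 in FLAG-CTCFL arrays and 12.00, 11.95 and 11.95 in control vector arrays. All FLAG-CTCFL arrays were below all control vector arrays, and Mad2l1 fell by 0.22 ± 0.05 (SE, n = 3 per group; adjusted p = 0.00323). On the linear scale it fell by 14.3%. Bub1b, which codes for BUBR1, a partner of MAD2 in the inhibitor of the anaphase-promoting complex, had 11.06, 10.93 and 10.99 in FLAG-CTCFL arrays and 11.11, 11.16 and 11.09 in control vector arrays. It lay just outside the threshold at -0.13 ± 0.05 (adjusted p = 0.0516). Bub1, a kinase of the checkpoint, differed by -0.06, and Bub3, the scaffold of BUB1 and BUBR1, by 0.09.

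Ttk, which codes for the kinase MPS1 at the head of the checkpoint, differed by 0.06, with an interval of -0.07 to 0.18. Cenpf, of the corona, differed by 0.08. Cdc20, the activator of the anaphase-promoting complex that the checkpoint inhibits, had 11.80, 11.58 and 11.70 in FLAG-CTCFL arrays and 11.59, 11.57 and 11.58 in control vector arrays. The lowest FLAG-CTCFL array reached the control range, and the difference of 0.11 ± 0.05 did not pass (adjusted p = 0.141). Cdc20, Bub3, Ttk and Cenpf passed as higher after quantile normalization, at 0.20, 0.17, 0.12 and 0.14, while Zwilch (-0.44) and Mad2l1 (-0.16) remained lower.

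The mitotic kinases, cyclins and chromosomal passenger genes held 2 of the 3 rises. Of 8 measured genes 2 rose and 1 fell, with a median of 0.08. Shares among genes above the median signal were 18.6% higher and 30.8% lower, and the group was not tested against them. Aurkb, the kinase of the passenger complex, which corrects wrong attachments, was 11.37, 11.12 and 11.28 in FLAG-CTCFL arrays and 11.05, 11.11 and 11.06 in control vector arrays. FLAG-CTCFL replicate 2 lay barely above the highest control vector array, and Aurkb rose by 0.18 ± 0.06 (SE, n = 3 per group; adjusted p = 0.0268). That call did not hold without FLAG-CTCFL replicate 1 or 3, without any 1 control vector array, or with no variance shared between genes. The adjusted p under the alternatives tried ranged from 0.000163 to 0.182.

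Birc5, which codes for survivin, another subunit of the passenger complex, was 10.59, 10.50 and 10.62 in FLAG-CTCFL arrays and 10.44, 10.43 and 10.31 in control vector arrays. The arrays did not overlap, and Birc5 rose by 0.18 ± 0.05 (adjusted p = 0.0167), a call not held without FLAG-CTCFL replicate 3 or control vector replicate 3, or with no variance shared between genes. Cdca8, the gene of borealin, differed by 0.14 ± 0.05 and lay just outside the threshold (adjusted p = 0.0574). Incenp, the scaffold of the complex, differed by 0.03, with an interval of -0.08 to 0.14. After quantile normalization all 4 genes of the passenger complex passed as higher, Aurkb at 0.26, Birc5 at 0.24, Cdca8 at 0.21 and Incenp at 0.10.

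Ccnb2, which codes for cyclin B2, was 12.31, 12.27 and 12.20 in FLAG-CTCFL arrays and 12.61, 12.60 and 12.61 in control vector arrays. The control vector arrays were nearly equal, all FLAG-CTCFL arrays lay lower, and Ccnb2 fell by 0.35 ± 0.04 (SE, n = 3 per group; adjusted p = 4.02e-05). On the linear scale it fell by 21.4%. Cdk1, the kinase that cyclin B2 activates, had 12.18, 12.06 and 12.15 in FLAG-CTCFL arrays and 12.19, 12.22 and 12.23 in control vector arrays. Its difference of -0.08 did not pass, with an interval of -0.18 to 0.02. Plk1 (0.05) and Aurka (0.10), kinases of centrosomes and spindle poles, did not pass with the deposited values, and Aurka passed at 0.18 after quantile normalization.

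The motors and spindle proteins held 5 of the 10 falls. Of 11 genes 5 fell and 0 rose (limma, 0 higher also at unadjusted p under 0.05), with a median of -0.17. Over all genes 18.4% fell, and among genes above the median signal 30.8% did, and no test set the group against them. Kif4, a chromokinesin that acts on chromosome arms and the central spindle, was 9.64, 9.38 and 9.64 in FLAG-CTCFL arrays and 10.27, 10.40 and 10.32 in control vector arrays. Its groups were far apart relative to their spread, and Kif4 fell by 0.78 ± 0.07 (adjusted p = 9.99e-07). On the linear scale it fell by 41.7%. Dlgap5, which codes for HURP, a stabiliser of kinetochore fibres, was 10.28, 10.17 and 10.32 in FLAG-CTCFL arrays and 10.93, 10.96 and 10.94 in control vector arrays. It fell by 0.69 ± 0.05 (adjusted p = 1.55e-07), with no overlap of the arrays, and on the linear scale it fell by 38.1%.

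Kif18a, the kinesin that limits the movement of chromosomes at the metaphase plate, had 9.91, 9.68 and 9.85 in FLAG-CTCFL arrays and 10.16, 10.22 and 10.11 in control vector arrays. The arrays did not overlap, and Kif18a fell by 0.35 ± 0.06 (SE, n = 3 per group; adjusted p = 0.000429). Nusap1, a microtubule bundler near chromosomes, had 11.40, 11.09 and 11.24 in FLAG-CTCFL arrays and 11.54, 11.62 and 11.53 in control vector arrays. It fell by 0.32 ± 0.07 (adjusted p = 0.00212), and its FLAG-CTCFL arrays spread more widely (SD 0.16) than its control vector arrays (SD 0.05). Prc1, the cross-linker of the central spindle, had 10.76, 10.66 and 10.69 in FLAG-CTCFL arrays and 10.85, 10.94 and 10.82 in control vector arrays. Its fall of 0.17 ± 0.05 (adjusted p = 0.0166) was lost after quantile normalization, at -0.09, after subtraction of array medians, with no variance shared between genes, and without FLAG-CTCFL replicate 3 or control vector replicate 2.

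Kif23, a kinesin that bundles microtubules of the central spindle, lay outside the threshold at -0.17 ± 0.07 (adjusted p = 0.0706), with FLAG-CTCFL arrays at 10.93, 10.63 and 10.86 and control vector arrays at 10.95, 11.00 and 10.97. Kif20a, a further central spindle kinesin, differed by 0.02, with an interval of -0.10 to 0.13. Kif11, the plus-end motor that separates spindle poles, differed by -0.01, with an interval of -0.13 to 0.10. Tpx2, a nucleator of spindle microtubules and activator of Aurora A, differed by -0.03, and Kif2c, a microtubule depolymerase at centromeres, by -0.04. Cenpe, the kinetochore kinesin of congression, differed by 0.05. After quantile normalization 4 of the 11 genes passed as lower, and Cenpe (0.11) and Kif20a (0.10) did not pass.

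**Figure D2:**
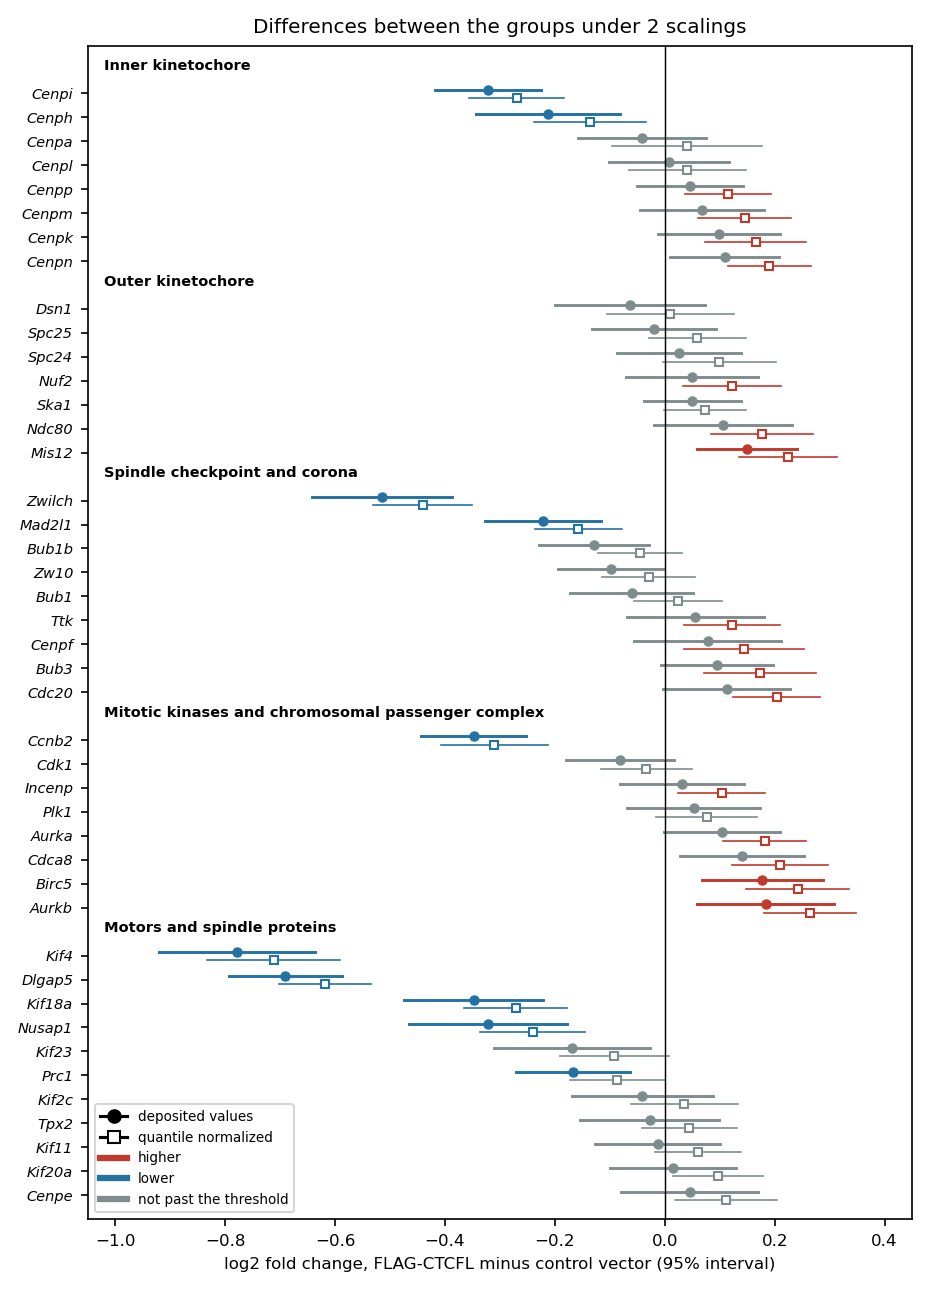
Log2 fold change of each gene, FLAG-CTCFL minus control vector, with its 95% interval, from the deposited values (filled circles) and after quantile normalization (open squares). Colours give the call at adjusted p under 0.05. Quantile normalization moves the genes to the right, so that 16 are called higher, while 9 of the 10 falls are still called.

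For the 30 genes that did not pass, the 95% intervals, each for its gene alone, show how large a difference the arrays leave possible. In 28 of them the interval lay within 0.25 on the log2 scale either way. The lowest bound was -0.31, for Kif23, and the highest 0.25, for Cdca8. The SEs of the 43 genes ran from 0.04 to 0.07. The arrays of the groups did not overlap for 20 of the 43 genes, 6 with FLAG-CTCFL above and 14 with FLAG-CTCFL below. Over all genes 41.3% did not overlap, 18.3% with FLAG-CTCFL above and 23% below. Among genes above the median signal 59.5% did not, 23.6% with FLAG-CTCFL above and 35.9% below.

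The 43 genes lie on 18 chromosomes, and some of the falls were shared with chromosomal neighbours. For each gene the 20 nearest measured genes above the median signal, 10 on each side, were taken from the RefSeq gene order. Around Kif4, on chromosome X, the neighbours had a median log2 fold change of -0.62, and 19 of 20 fell. Around Dlgap5, on chromosome 14, the median was -0.56, and 18 of 20 fell. Around Cenpi, elsewhere on chromosome X, it was -0.24, and 12 of 20 fell. These 3 genes therefore fell together with the stretch of chromosome they lie in, and what lowered the stretches was not tested.

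The other 40 genes had neighbour medians between -0.12 and 0.10. The falls of Zwilch (neighbours -0.08), Ccnb2 (-0.0031), Kif18a (-0.11), Nusap1 (-0.07) and Mad2l1 (-0.02) were larger than those of their surroundings. Among these 40 genes 3 were higher and 7 lower, and the median was 0.02. Across the 43 genes Pearson's r between the fold change of a gene and its neighbours' median was 0.74, and it was 0.31 across the 40. Genes read on the same 6 arrays are not independent, so r is a description only.

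**Figure D3:**
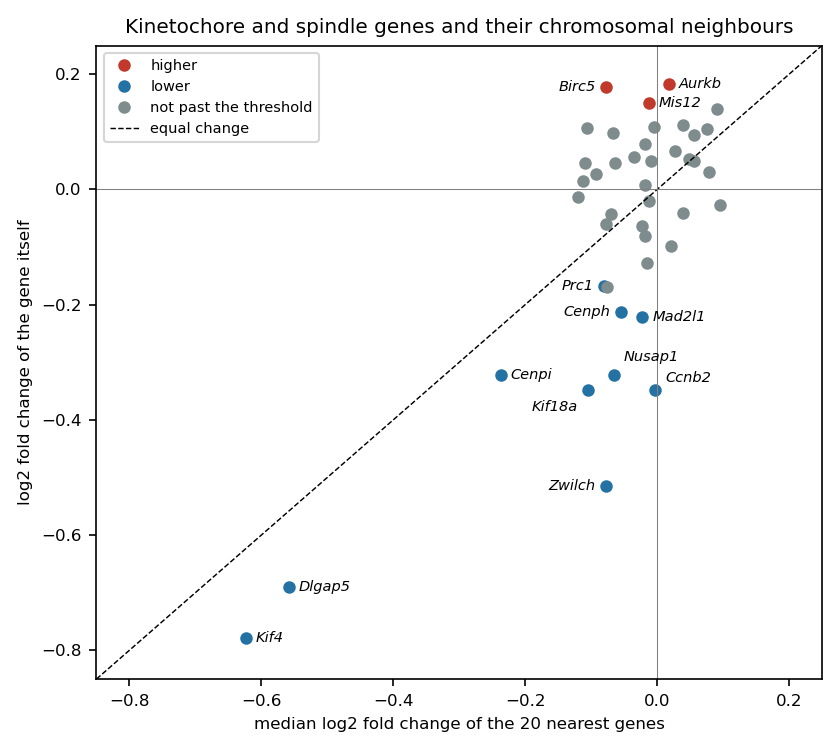
Log2 fold change of each kinetochore and spindle gene (y axis) against the median of its 20 nearest measured genes (x axis), both FLAG-CTCFL minus control vector. The dashed line marks equal change. Kif4 and Dlgap5 sit at the lower left near that line, and Zwilch, Ccnb2, Kif18a and Nusap1 sit below it with neighbours near 0.

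Close neighbours were also read for some genes. A head-to-head partner, with its start on the other strand within 1000 bases upstream, was found for 8 of the 35 measured genes with a promoter window. Pdzd11, whose start lies 124 bases from that of Kif4, fell by 0.55 (adjusted p = 1.87e-05). The neighbours of Kif4 had a median of -0.62, so Pdzd11 fell no more than the stretch that holds it. Derl2, 308 bases from Mis12, rose by 0.14 (adjusted p = 0.0448), close to the 0.15 of Mis12. Oip5 was not among the partners found and is taken from a list given below. It codes for a subunit of the complex that prepares centromeres for new CENP-A, and lies on chromosome 2, as Nusap1 and other listed genes do. Of those others Kif18a fell, and Bub1, Bub1b, Spc25, Dsn1, Aurka and Tpx2 did not pass. Its signals were 9.70, 9.52 and 9.64 in FLAG-CTCFL arrays and 10.13, 10.16 and 10.05 in control vector arrays. Oip5 fell by 0.49 ± 0.05 (adjusted p = 9.21e-06), and Nusap1, as given above, by 0.32. How far Oip5 lies from Nusap1 was not measured here, so their falls are not read as those of a pair. The partners of Cenpk, Cenpn, Cenpp, Aurka and Cdca8 did not pass, and that of Nuf2 was not measured.

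Further genes of mitosis outside the 43 were read from lists of the same kind. Their counts stand beside 12.5% higher and 18.4% lower over all genes, and 18.6% and 30.8% among genes above the median signal. After quantile normalization the shares over all genes were 19.8% and 16.6%, and among genes above the median signal 32.4% and 25.7%. No list was tested against these shares. Of 22 other kinetochore and centromere genes 6 were higher and 5 lower, with a median of 0.06. Cenpo rose by 0.29, Nsl1, a MIS12 complex subunit, by 0.28, Spdl1, which recruits dynein through the RZZ complex, by 0.23, and Cenpu by 0.22. Ska3, the partner of Ska1, fell by 0.69 and lies on chromosome 14 among neighbours with a median of -0.46. Oip5, Sgo2a, a protector of centromeric cohesion (-0.44), and Cenpt (-0.18) fell too. After quantile normalization 11 were higher and 5 lower.

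Of 17 other genes of the checkpoint and of entry into mitosis 3 were higher and 1 lower, with a median of 0.02. Cdc25a, the phosphatase that activates cyclin-dependent kinases, rose by 0.35, Nek2, a centrosomal kinase, by 0.25, and Mad1l1, the partner of MAD2 at kinetochores, by 0.21, while Pttg1, the gene of securin, fell by 0.24. Of 17 genes of the anaphase-promoting complex and its cofactors 1 was higher, Anapc13 (0.35), and 3 were lower, Anapc4 (-0.22), Cdc23 (-0.18) and the activator Fzr1 (-0.13). After quantile normalization 5 of these 17 were higher and 1 lower, and Cdc23 and Fzr1 no longer passed.

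Of 30 spindle and cytokinesis genes outside the 43, 4 were higher and 13 lower, with a median of -0.13. Falls also outnumbered rises among genes above the median signal, at 30.8% lower and 18.6% higher, and the list was not tested against them. After quantile normalization 7 were higher and 10 lower. Cep55, of abscission, fell by 0.78, and the augmin subunits Haus7 (-0.75), Haus4 (-0.49) and Haus2 (-0.37) fell as well. Haus7, on chromosome X, and Haus4, on chromosome 14, had neighbour medians of -0.76 and -0.37, and Cep55 and Haus2 had -0.05 and -0.08. Kif18b, the nearest relative of Kif18a among the genes read, rose by 0.28, and Haus8 (0.27), Tacc3 (0.19) and Cit (0.15) rose too.

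Among 22 regulators of late cell cycle transcription 2 were higher and 7 lower, with a median of -0.07. Among genes above the median signal 18.6% were higher and 30.8% lower, and the list was not tested against them. Foxm1, an activator of G2 and M phase genes, was 9.97, 9.83 and 9.98 in FLAG-CTCFL arrays and 10.35, 10.35 and 10.32 in control vector arrays, a fall of 0.41 (adjusted p = 2.11e-05). It lies on chromosome 6 among neighbours with a median of -0.31. Rb1, the retinoblastoma repressor, fell by 1.09 and lies on chromosome 14 among neighbours at -0.50, while its relative Rbl1 fell by 0.37 with neighbours at -0.02. Of the NF-Y subunits, which bind CCAAT boxes, Nfya fell by 0.37 and Nfyc rose by 0.29. E2f4 (-0.28), Tfdp1 (-0.24) and E2f1 (-0.18) fell as well, and E2f2 (0.19) rose. Mybl2 (-0.09), Lin9 (-0.06) and Lin54 (0.10), some of the genes of complexes that act at CHR elements, did not pass with the deposited values. Lin54 passed at 0.17 after quantile normalization. With that scaling 6 of the 22 were higher and 6 lower.

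DNA replication genes, the counterpart of these genes in S phase, gave a similar share of calls. Of 42 genes 7 were higher and 6 lower, or 31.0% called, with a median of 0.01, beside 30.2% called and a median of 0.0083 for the 43 kinetochore and spindle genes. Fen1 (0.355), Rpa1 (0.28), Rfc2 (0.28) and Gins4 (0.22) rose, and Pola1 (-1.14), on chromosome X among neighbours at -0.75, Orc5 (-0.41), Mcm6 (-0.29) and Orc1 (-0.28) fell. No difference between the lists was tested.

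**Figure D4:**
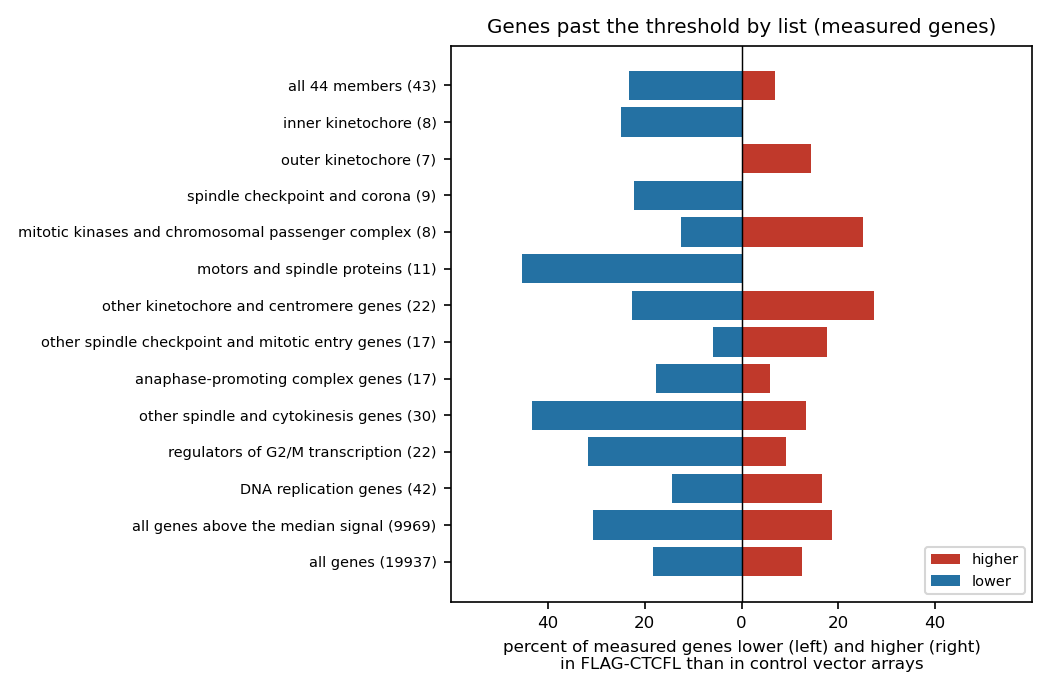
Share of measured genes past the threshold, lower (left) and higher (right) in FLAG-CTCFL than in control vector arrays, for the 43 genes, their role groups, further lists and all genes, from the deposited values. The motors and spindle proteins hold 5 lower and 0 higher of 11, and the outer kinetochore 1 higher and 0 lower of 7.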

How the data were processed

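The deposited values are log2 signals, 1 for each probe set on each of 6 arrays. Their log2 scale was inferred from their range of 5.73 to 14.56, and which background correction, summarisation and normalization the authors used is not given in the sources used here. Of 34760 probe sets 21640 had 1 gene symbol, 1321 several and 11799 none. Names were updated by Entrez ID through GRCm38.p6 (21553 matched), and the brightest probe set per gene was kept, which gave 19937 genes.

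The test was limma's moderated comparison (version 3.58.1, R 4.3.3), with lmFit and eBayes on a design that held the group and no other term. P-values were adjusted by Benjamini-Hochberg over all 19937 genes, and 0.05 was the threshold. The number of arrays limits the precision. All listed genes are named, and of other lists up to 4 with the smallest p in each direction. For the regulators of late cell cycle transcription all called genes and several that did not pass are named. Members and lists were chosen with earlier results of these data known. The main test did not pair arrays by replicate number. Deviations of equally numbered arrays from their group means correlated at 0.13, -0.20 and -0.02, which cannot settle whether those arrays were prepared together. The test was run on simulated data with known changes. It recovered 90.3% of changes of 0.25 on the log2 scale and 100% of those of 0.5, and 6.23% of its calls were false. The simulated noise was independent between genes and held no shift shared by the genes of an array. Alternatives are given in the closing section. Figures used matplotlib 3.10.9.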

Additional observations from a re-analysis of the deposited data

How the results depend on the processing

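The counts of higher genes depended on the processing more than the counts of lower genes. Against 3 higher and 10 lower of the 43 genes, quantile normalization gave 16 and 9, beside 19.8% and 16.6% of all genes. For genes above the median signal, where all 43 lie, that scaling gave 32.4% and 25.7%. Array weights gave 10 and 13, beside 21% and 25.1% of all genes. The weights were 5.77 for FLAG-CTCFL replicate 3 and 0.41 and 0.32 for replicates 1 and 2. That fit therefore leans mainly on 1 FLAG-CTCFL array. A test without a variance shared between genes gave 1 and 5, beside 7.31% and 12.4% of all genes, and Mad2l1, Kif18a, Nusap1, Cenph and Prc1 lost their calls as lower. Leaving out 1 array in turn gave 0 to 9 higher (limma, 3 at unadjusted p under 0.05 where the count was 0) and 8 to 13 lower. Over all genes these fits called 9.56% to 14.1% higher and 15.3% to 19.5% lower. The count of 9 higher genes came from leaving out FLAG-CTCFL replicate 2, and that of 0 from leaving out control vector replicate 3. The count was 1 on leaving out control vector replicate 2, and 1 also when FLAG-CTCFL replicate 3 was dropped. The replicate block gave 3 higher and 10 lower, beside 12% and 18% of all genes, and moved no count of the 43 genes. Subtraction of array medians (3 and 8) and filters on dim genes (4 and 11) stayed within 1.5 times. So did the variance trend (3 and 10) and the mean of probe sets (3 and 10). Leaving out the 3 genes in lowered stretches (3 and 7) did too, an alternative chosen after seeing the data. Array medians gave 13.5% and 15.7% of all genes, the variance trend 12.4% and 18.1%, and the mean of probe sets 12.5% and 18.3%. The filters gave 16.4% and 24.6%, or 19.7% and 31.8%, of the genes they kept. Under the 15 other alternatives Cenpi, Zwilch, Ccnb2, Kif4 and Dlgap5 remained lower, and no rise held under all of them. No call changed sign. For the genes that did not pass, 16 of 30 passed in at least 1 alternative. After quantile normalization DNA replication genes were at 15 higher and 5 lower of 42, beside the same 32.4% and 25.7% of genes above the median signal. The cause of these shifts was not tested.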
